A study of Mus musculus with 16 samples.

Results

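Tyms, Rrm1, Rrm2, Tk1, Umps, Shmt1, Dut, Dck and Cad encode enzymes that make the pyrimidine and deoxynucleotide building blocks of DNA. These 9 genes, listed by symbol for their place in that pathway, were followed among the 12394 genes that the arrays measured with a probe set naming them alone. Naive T cells, sorted as CD25-CD62LhiCD44lo from spleen and lymph nodes, came from mice with floxed Gabpa, the DNA-binding subunit of the Ets family factor GABP. Gabpaf/f mice without Cre served as WT. CD4CreGabpaf/f mice (KO) carried in addition a CD4-Cre transgene, which is active from the double-positive thymocyte stage, so that both lineages develop through a stage with Cre. No age is given in the labels, and how many mice entered a sort is not stated. CD4+ and CD8+ cells of each genotype were lysed after the sort (0 h) or after 18 h with α-CD3/28 and IL-2, which makes 8 groups of 2 arrays and 16 arrays in all.

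A T cell that leaves rest needs deoxynucleotides before it can copy its genome. Pyrimidines are built de novo by CAD, DHODH and UMPS up to UMP, ribonucleotide reductase turns ribonucleotides into deoxyribonucleotides, and thymidylate is made from dUMP by thymidylate synthase with a folate cofactor that SHMT1 helps to supply. Salvage kinases such as TK1 and DCK feed on free nucleosides instead. In resting lymphocytes several of these enzymes are scarce, and they are known to be induced as cells approach S phase.

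Values are log2 signals of the authors' table, and differences are limma estimates with their standard error (SE, n = 2 arrays per group). A gene was called higher or lower where its adjusted p was under 0.05 and its fold above 1.5. The labels name the arrays of a group biological replicates, and p-values measure only the spread between them. Gabpa itself read 8.74 to 9.34 on the 8 WT arrays and 9.09 to 9.79 on the 8 KO arrays, and was called higher in KO CD4 cells at 18 h (0.72 ± 0.20, limma adjusted p 0.0441). That call was lost in 3 of 12 alternatives and in 12 of 16 fits that left out an array, those without any CD4 array or any 0 h array, with values from 0.69 to 0.76. The position of its probe sets with respect to the deleted exons is not given, so this level checks nothing about the deletion. Arrays 1 and 2 of a group are its replicates of that number. Cd8a lay between 10.89 and 12.01 on CD8 arrays and between 4.42 and 7.56 on CD4 arrays, with both CD4 WT arrays of replicate 1 above the other CD4 arrays. Signal at the 3' end of the actin and Gapdh control transcripts exceeded that at the 5' end by 0.46 to 0.85 on 13 arrays, by 1.58 on CD4 WT 0 h array 1, by 1.11 on CD8 KO 0 h array 2 and by 3.76 on CD8 KO 18 h array 2.

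After 18 h of stimulation, 6 of the 9 genes were lower in KO than in WT CD4 cells, and 4.14% of all genes tested were called lower in that comparison. They were Tyms, Rrm2, Tk1, Rrm1, Dck and Umps, with differences from -2.33 to -0.76. In CD8 cells at 18 h, Tyms and Umps were called lower, beside 1.16% of all genes. The median difference of the 9 genes was -1.03 in CD4 cells, where the median of all genes was 0.02, and -0.56 in CD8 cells, where it was 0.07. The estimates of all 9 were below 0 in CD4 cells at 18 h, and those of 8 in CD8 cells. A test against a minimum fold of 1.5 kept 2 genes in CD4 cells, Tyms and Rrm2, and 0 in CD8 cells, where array weights or a fit to the 8 CD8 arrays alone also left 0. Without CD4 WT 18 h array 1, CD4 WT 18 h array 2, CD4 KO 18 h array 1 or CD4 KO 18 h array 2, 2, 3, 2 and 2 members were called in CD4 cells. In CD8 cells, 0 were called without CD8 WT 18 h array 2 and 1 without CD8 KO 18 h array 2. Less RNA per cell and fewer cells that carry it cannot be told apart in such bulk samples.

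**Figure D1:**
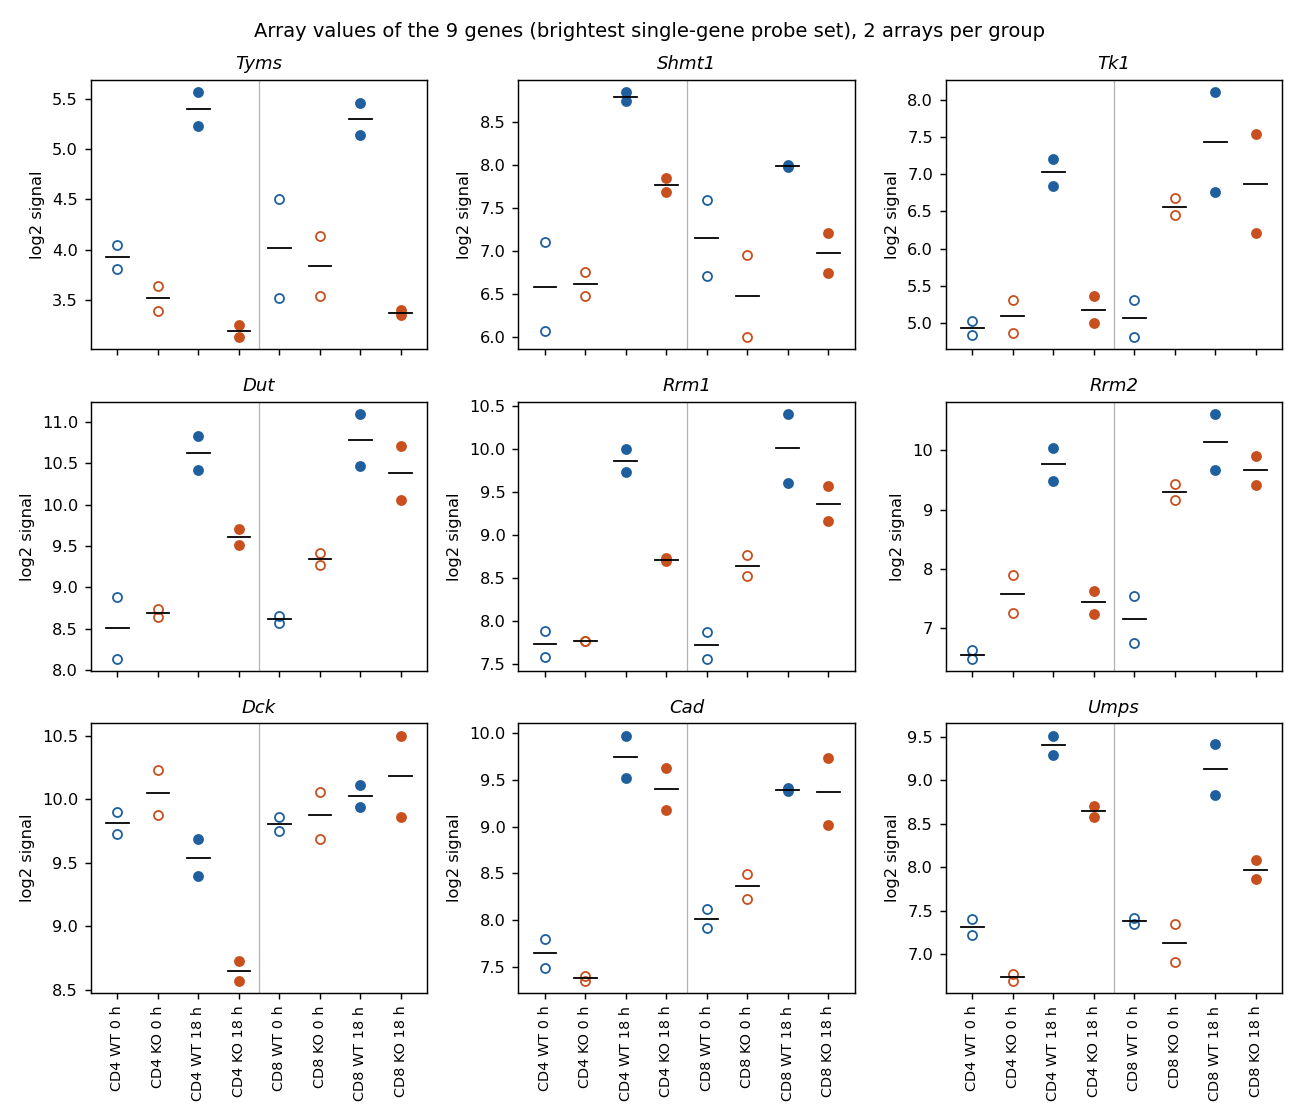
Log2 signal of each gene on every array, with 8 groups along the horizontal axis, 2 points per group and a black line at their mean. Blue is WT, orange is KO, open points are 0 h and filled points 18 h. Tyms lies between 3.13 and 3.39 on the 4 KO arrays at 18 h and between 5.15 and 5.57 on the 4 WT arrays, while Cad overlaps between genotypes at 18 h in both lineages.

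GABP binds DNA at Ets motifs, and promoters of the members were therefore read for the letters of its core site. The 250 bases before the RefSeq start (GRCm38.p6) are shown for the 2 genes that were lower in both lineages, Tyms (chr5:30073626-30073875, minus strand) and Umps (chr16:33967039-33967288, minus strand), and for both subunit genes of ribonucleotide reductase, Rrm1 (chr7:102441445-102441694, plus strand) and Rrm2 (chr12:24708004-24708253, plus strand). Each runs 5' to 3' on the strand of its gene. Capitals mark CCGGAA on either strand, with its following G where the full CCGGAAG is present, and the E2F core TTCCCGC.
Tyms: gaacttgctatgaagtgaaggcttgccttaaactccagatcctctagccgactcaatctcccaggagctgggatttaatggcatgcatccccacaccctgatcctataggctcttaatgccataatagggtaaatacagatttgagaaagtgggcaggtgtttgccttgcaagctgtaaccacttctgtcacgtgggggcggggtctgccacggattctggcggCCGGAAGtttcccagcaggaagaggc
Umps: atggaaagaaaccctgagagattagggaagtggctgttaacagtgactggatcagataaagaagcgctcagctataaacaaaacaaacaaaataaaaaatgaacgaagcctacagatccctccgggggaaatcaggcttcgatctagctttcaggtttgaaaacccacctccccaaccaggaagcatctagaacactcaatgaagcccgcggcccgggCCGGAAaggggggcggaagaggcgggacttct
Rrm1: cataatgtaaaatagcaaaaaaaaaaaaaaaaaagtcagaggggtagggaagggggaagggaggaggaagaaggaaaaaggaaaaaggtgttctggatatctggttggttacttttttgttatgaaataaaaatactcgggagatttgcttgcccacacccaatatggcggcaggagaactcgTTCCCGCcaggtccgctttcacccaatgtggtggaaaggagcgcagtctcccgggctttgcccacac
Rrm2: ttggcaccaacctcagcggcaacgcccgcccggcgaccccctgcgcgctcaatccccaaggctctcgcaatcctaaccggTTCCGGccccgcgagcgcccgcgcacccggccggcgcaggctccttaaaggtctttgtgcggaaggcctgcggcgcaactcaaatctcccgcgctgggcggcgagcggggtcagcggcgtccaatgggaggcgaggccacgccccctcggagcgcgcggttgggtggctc
The core CCGGAAG was found once, in Tyms, at 26 bases before the start, and 6.91% of 32851 promoter windows of this length hold it on either strand. Its first 6 letters alone, a search added after the sequences had been seen and overlapping the full core, were also present in Umps at 32 bases and in Rrm2 at 170 bases before the start (12% of all windows). TTCCCGC was present in Rrm1 alone among the 9 (3.82% of windows), and the other E2F core, TTGGCGC, in none of the 9 (1.97%). The GC box GGGCGG was present in 8 of the 9 windows, all but that of Rrm1 (32.7% of windows), and CCAAT in those of Shmt1, Rrm1 and Rrm2 (33.8%). Both strands were read for every motif. The windows of Tyms, Tk1, Cad and Dut overlap the RefSeq gene by 20, 73, 160 and 250 bases.

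Cad encodes the enzyme that carries out the opening steps of pyrimidine synthesis (chr5:31054620-31078479). In CD4 cells it read 7.80 and 7.49 (WT) and 7.35 and 7.41 (KO) at 0 h, and 9.52 and 9.97 (WT) and 9.18 and 9.63 (KO) at 18 h. The CD8 arrays gave 8.12 and 7.92 (WT) and 8.23 and 8.49 (KO) at 0 h, and 9.38 and 9.41 (WT) and 9.01 and 9.74 (KO) at 18 h. Stimulated arrays lay above every unstimulated array, and genotypes overlapped at 18 h. Cad rose 4.28-fold in WT and 4.07-fold in KO CD4 cells, and 2.60-fold in WT and 2.02-fold in KO CD8 cells. The KO minus WT difference at 18 h was -0.34 ± 0.24 in CD4 cells (95% interval -0.87 to 0.19) and -0.02 ± 0.24 in CD8 cells (-0.55 to 0.51). Neither was called, with limma adjusted p of 0.598 and 0.983. The rise in KO CD8 cells (adjusted p 0.0238) was not called without CD8 KO 0 h array 1 (0.88 on the log2 scale), CD8 KO 0 h array 2 (1.15) or CD8 KO 18 h array 2 (0.65), and was lost in 5 of 12 alternatives. The second Cad probe set changed by 0.24 ± 0.22 in KO CD8 cells, which was not called, and by 1.23 ± 0.22 in WT CD8 cells. Averaged over both probe sets, the change of Cad in KO CD8 cells was 0.63 and not called (adjusted p 0.0914).

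Umps encodes UMP synthase, which closes the de novo route to UMP (chr16:33954782-33967038). It read 7.41 and 7.22 (WT) and 6.78 and 6.70 (KO) in CD4 cells at 0 h, and 9.51 and 9.29 (WT) and 8.71 and 8.58 (KO) at 18 h. CD8 values were 7.35 and 7.41 (WT) and 6.91 and 7.35 (KO) at 0 h, and 8.83 and 9.42 (WT) and 8.08 and 7.86 (KO) at 18 h. KO arrays lay below WT arrays at 18 h in both lineages, and both genotypes lay above their own 0 h values. At 18 h Umps was 1.69-fold lower in KO CD4 cells (-0.76 ± 0.21, limma adjusted p 0.0439) and 2.22-fold lower in KO CD8 cells (-1.15 ± 0.21, adjusted p 0.0123). It still rose in KO cells, 3.75-fold in the CD4 lineage (4.24-fold in WT) and 1.79-fold in the CD8 lineage (3.34-fold in WT). At 0 h the difference in CD4 cells was -0.58 ± 0.21 and was not called (adjusted p 0.291). The call in CD4 cells at 18 h was lost without any of the 8 CD4 arrays or either CD8 WT 0 h array, with values from -0.87 to -0.65. The call in CD8 cells was lost without array 2 of the stimulated WT group (-0.85) or array 2 of the stimulated KO group (-1.04), and the rise in KO CD8 cells without CD8 KO 0 h array 1 (0.62) or CD8 KO 18 h array 1 (0.73).

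Rrm2 encodes the small subunit of ribonucleotide reductase, whose level is tied to the cell cycle (chr12:24708254-24714146). In CD4 cells it read 6.49 and 6.63 (WT) and 7.91 and 7.26 (KO) at 0 h, and 10.05 and 9.49 (WT) and 7.63 and 7.24 (KO) at 18 h. On CD8 arrays it read 7.55 and 6.76 (WT) and 9.44 and 9.16 (KO) at 0 h, and 9.67 and 10.62 (WT) and 9.42 and 9.91 (KO) at 18 h. KO arrays were thus higher than WT arrays before stimulation in both lineages, lower after it in CD4 cells, and overlapping with WT after it in CD8 cells. At 18 h Rrm2 was 5.02-fold lower in KO CD4 cells (-2.33 ± 0.35, limma adjusted p 0.00169). In CD8 cells it was 4.43-fold higher in KO cells at 0 h (2.15 ± 0.35, adjusted p 0.00981), a call that 1 of its 3 probe sets passed when each was fitted separately (1.18 to 2.15 over the 3, with 0.601% of probe sets called higher), and its difference at 18 h was -0.48 ± 0.35 (95% interval -1.25 to 0.29). It rose 9.26-fold in WT CD4 and 7.97-fold in WT CD8 cells, whereas the changes in KO cells were -0.15 ± 0.35 and 0.37 ± 0.35 and were not called. The higher value of KO CD8 cells at 0 h was not called without CD8 WT 0 h array 2 (1.75), CD8 KO 0 h array 1 (2.01) or CD8 KO 0 h array 2 (2.29), nor against a minimum fold of 1.5.

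Rrm1 encodes the large, catalytic subunit of the same enzyme (chr7:102441695-102469771). It read 7.88 and 7.58 (WT) and 7.77 and 7.77 (KO) in CD4 cells at 0 h, and 9.996 and 9.73 (WT) and 8.69 and 8.72 (KO) at 18 h. The corresponding CD8 values were 7.87 and 7.56 (WT) and 8.76 and 8.52 (KO) at 0 h, and 9.60 and 10.41 (WT) and 9.16 and 9.57 (KO) at 18 h. KO arrays lay below WT arrays at 18 h in both lineages, in CD8 cells by a margin smaller than the gap between the WT replicates. Rrm1 was 2.23-fold lower in KO CD4 cells at 18 h (-1.15 ± 0.24, limma adjusted p 0.0123). The differences in CD8 cells, 0.93 ± 0.24 at 0 h and -0.64 ± 0.24 at 18 h, were not called (adjusted p 0.0934 and 0.194). KO CD4 cells still raised Rrm1 1.92-fold, against 4.37-fold in WT. The lower value of KO CD4 cells was not called without CD4 WT 18 h array 1 (-1.02), CD4 KO 18 h array 1 (-1.14) or CD4 KO 18 h array 2 (-1.17), and the rise in KO CD4 cells was lost without any of the 4 CD4 KO arrays (0.92 to 0.96). The value in CD8 cells at 18 h was called without CD8 WT 18 h array 1 (-1.04), and that at 0 h without either CD8 WT 18 h array (0.93). Its change with stimulation in KO CD8 cells (0.72) was called without CD8 WT 18 h array 1 or 2, or CD8 KO 18 h array 1.

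Dut encodes dUTPase, which yields the dUMP that thymidylate synthase uses and keeps uracil out of DNA (chr2:125247248-125259049). In CD4 cells it read 8.89 and 8.14 (WT) and 8.73 and 8.65 (KO) at 0 h, and 10.83 and 10.42 (WT) and 9.71 and 9.51 (KO) at 18 h. Readings in CD8 cells were 8.58 and 8.66 (WT) and 9.27 and 9.42 (KO) at 0 h, and 10.46 and 11.09 (WT) and 10.05 and 10.70 (KO) at 18 h. Groups did not overlap in CD4 cells at 18 h or in CD8 cells at 0 h, and the share of all genes that separate so is not given here. The KO minus WT difference in CD8 cells at 0 h was 0.73 ± 0.28 and was not called (limma adjusted p 0.338). At 18 h the KO minus WT difference of Dut in CD4 cells was -1.01 ± 0.28, and its limma adjusted p, 0.05 when rounded, did not pass the threshold. Over the alternatives tried this p ran from 0.0064 to 1, and it passed in 7 of 12, and on leaving out either array of CD4 WT 0 h, CD8 WT 18 h or CD8 KO 18 h. Dut rose 4.31-fold in WT and 1.89-fold in KO CD4 cells, and 4.47-fold in WT and 2.04-fold in KO CD8 cells. The rise in KO CD8 cells (adjusted p 0.0443) was lost without CD8 KO 0 h array 1 (0.95) or 2 (1.11), CD8 KO 18 h array 2 (0.70), or any array of CD4 KO 0 h, CD4 WT 18 h, CD4 KO 18 h or CD8 WT 0 h. It stood in 5 of 12 alternatives. Neither of the 2 Dut probe sets was called for it when fitted among all probe sets (0.58 to 1.03, with 2.80% of probe sets called higher). The rise in KO CD4 cells was lost without any CD4 KO array (0.82 to 1.01).

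Shmt1 encodes the cytosolic serine hydroxymethyltransferase that charges folate with the carbon unit for thymidylate (chr11:60788897-60811265). Its brightest probe set read 6.06 and 7.11 (WT) and 6.48 and 6.75 (KO) in CD4 cells at 0 h, and 8.85 and 8.74 (WT) and 7.85 and 7.69 (KO) at 18 h. In CD8 cells it read 7.59 and 6.71 (WT) and 6.95 and 5.997 (KO) at 0 h, and 7.98 and 7.997 (WT) and 7.21 and 6.74 (KO) at 18 h. Genotypes did not overlap at 18 h, with no share of all genes given for such separation, while replicates at 0 h differed by up to 1.05. The differences at 18 h, -1.03 ± 0.37 in CD4 and -1.01 ± 0.37 in CD8 cells, were not called by that probe set (limma adjusted p 0.147 and 0.181). When the 4 Shmt1 probe sets were averaged, Shmt1 was called lower in both lineages, by -1.002 in CD4 and -1.36 in CD8 cells, with adjusted p of 0.00343 and 0.00149, where the alternatives ranged up to 1. With the replicate number as a block, the brightest probe set was called lower in CD4 cells as well (adjusted p 0.0432). Stimulation raised Shmt1 4.63-fold in WT and 2.23-fold in KO CD4 cells by the brightest probe set, a KO minus WT response of -1.06. By the average of the 4 the changes were 2.86 and 2.34 on the log2 scale, both called, and the response difference was -0.52. In WT CD8 cells its change was 0.84 by the brightest probe set, not called, and 1.91 by the average of the 4, called. In KO CD8 cells the average changed by 1.03 and was called (adjusted p 0.00309). The rise in KO CD4 cells by the brightest probe set was lost without any CD4 KO array (1.02 to 1.29) or either array of CD4 WT 18 h or CD8 WT 18 h.

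Tyms encodes thymidylate synthase, the sole de novo source of thymidylate (chr5:30038546-30073645). In CD4 cells it read 3.80 and 4.05 (WT) and 3.38 and 3.64 (KO) at 0 h, and 5.23 and 5.57 (WT) and 3.13 and 3.25 (KO) at 18 h. The CD8 arrays gave 4.50 and 3.52 (WT) and 4.14 and 3.54 (KO) at 0 h, and 5.15 and 5.46 (WT) and 3.39 and 3.35 (KO) at 18 h. The 4 stimulated KO arrays lay below every WT array, stimulated or not, and the 4 stimulated WT arrays above all others. At 18 h Tyms was 4.63-fold lower in KO CD4 cells (-2.21 ± 0.29, limma adjusted p 0.000567) and 3.82-fold lower in KO CD8 cells (-1.93 ± 0.29, adjusted p 0.00425). At 0 h the differences were -0.41 ± 0.29 and -0.18 ± 0.29 and were not called. Tyms rose 2.78-fold in WT CD4 and 2.45-fold in WT CD8 cells, and its changes in KO cells, -0.32 ± 0.29 and -0.47 ± 0.29, were not called. The call in CD4 cells at 18 h stood in all 16 fits that left out an array. In CD8 cells it was lost without CD8 WT 18 h array 2 (-1.78), and the WT CD8 rise was lost without that array (1.13) or CD8 WT 0 h array 2 (0.80).

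Tk1, the thymidine kinase of cycling cells (chr11:117815519-117826087), has a single probe set. It read 4.84 and 5.03 (WT) and 4.87 and 5.31 (KO) in CD4 cells at 0 h, and 7.21 and 6.84 (WT) and 4.995 and 5.36 (KO) at 18 h. CD8 values were 5.31 and 4.81 (WT) and 6.45 and 6.67 (KO) at 0 h, and 6.76 and 8.10 (WT) and 6.20 and 7.54 (KO) at 18 h. Stimulated and unstimulated KO CD4 arrays overlapped, and genotypes overlapped in CD8 cells at 18 h. Tk1 was 3.602-fold lower in KO CD4 cells at 18 h (-1.85 ± 0.44, limma adjusted p 0.0229), a call lost in each of the 4 fits that left out an array of those groups, with values from -2.03 to -1.67. It rose 4.26-fold in WT CD4 and 5.16-fold in WT CD8 cells, and its changes in KO cells were 0.09 ± 0.44 and 0.31 ± 0.44. In CD8 cells at 0 h it was 1.498 ± 0.44 higher in KO arrays without passing (adjusted p 0.144). It passed without either CD8 KO 18 h array and with array weights.

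Dck, deoxycytidine kinase (chr5:88765013-88783277), salvages deoxycytidine and purine deoxynucleosides. In CD4 cells it read 9.72 and 9.90 (WT) and 10.23 and 9.88 (KO) at 0 h, and 9.69 and 9.40 (WT) and 8.73 and 8.57 (KO) at 18 h. In CD8 cells all 8 arrays lay between 9.69 and 10.50. The stimulated KO CD4 arrays were the lowest of the 16. Dck was 1.85-fold lower in KO than in WT CD4 cells at 18 h (-0.89 ± 0.22, limma adjusted p 0.0274) and fell 2.64-fold with stimulation in KO CD4 cells (-1.40 ± 0.22, adjusted p 0.000393), while the change in WT CD4 cells was -0.27 ± 0.22. In CD8 cells the difference at 18 h was 0.16 ± 0.22 (95% interval -0.32 to 0.63). The KO minus WT call was lost in each of the 4 fits that left out a CD4 18 h array, with values from -1.04 to -0.75, and the fall in KO CD4 cells stood in all 16.

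**Figure D2:**
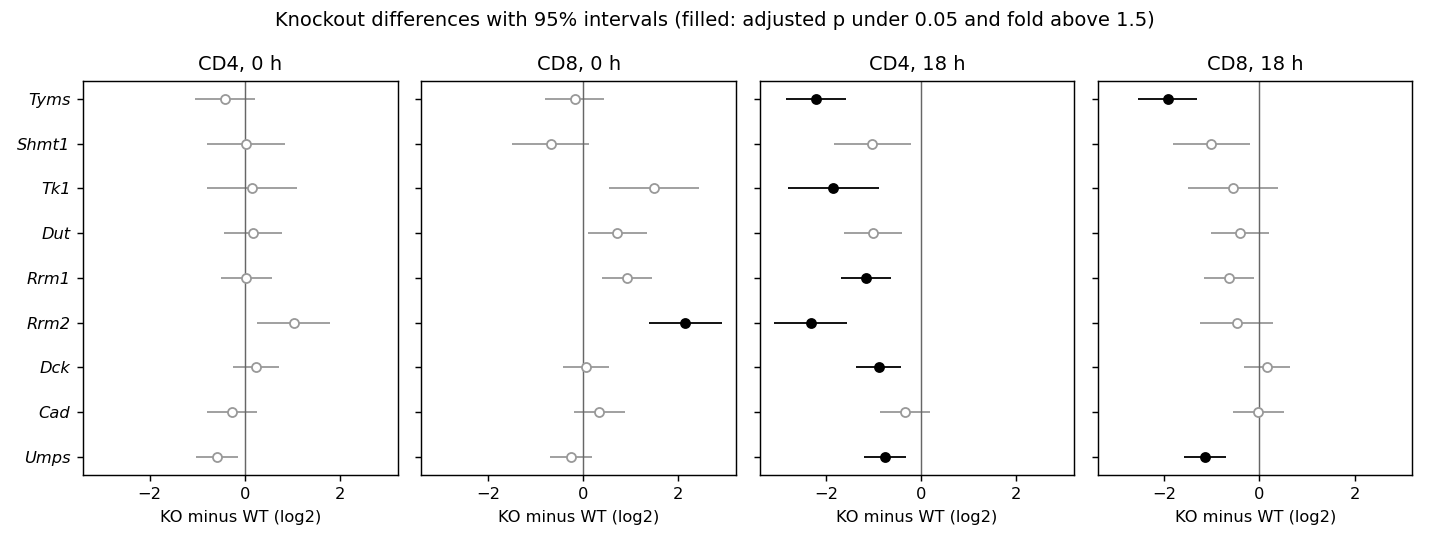
KO minus WT difference of each gene on the log2 scale in the 4 comparisons, with 95% intervals from limma. Filled points were called. At 18 h 6 genes are called in CD4 and 2 in CD8 cells, all to the left of 0, and the only called point at 0 h is Rrm2 in CD8 cells, at 2.15.

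Setting the responses to stimulation side by side showed which enzymes KO cells still induced. WT cells raised 8 of the 9 genes in the CD4 lineage, all but Dck (12.2% of all genes were called higher), and 7 in the CD8 lineage, all but Dck and Shmt1 (8.21%). KO CD4 cells raised 5, namely Shmt1, Dut, Rrm1, Cad and Umps (11.1%), and lowered Dck (13.2% lower). KO CD8 cells raised 3, Dut, Cad and Umps (3.67%), and Shmt1 was called but Cad was not when probe sets were averaged. The call of Dut there stood in 5 of 12 alternatives. Rrm2, Tk1 and Tyms were raised in WT cells of both lineages and in KO cells of neither. With probe sets averaged, the WT changes of Tyms (0.47 in CD4 and 0.32 in CD8 cells) were not called. KO CD8 cells already read higher for Rrm2 and Tk1 at 0 h, with means of 9.30 and 6.56 against 7.15 and 5.06 in WT. Of these, Rrm2 alone was called. At 18 h the means in CD8 cells were 9.67 and 6.87 (KO) and 10.15 and 7.43 (WT), not called different. The difference between the KO and the WT response is the test of a rise in WT but not in KO cells. It was called in CD4 cells for 1 member, Rrm2 (-3.36 ± 0.50, limma adjusted p 0.00708, 0.888% of genes called lower). Fitted among all probe sets, 1 of the 3 Rrm2 probe sets passed (-3.36 to -2.27, with 0.327% of probe sets called lower). With the replicate number as a block within each lineage, the response difference was called for 4 members in CD4 cells. They were Rrm2 (adjusted p 0.00481), Tyms (0.0209), Dck (0.0304) and Dut (0.0453). In CD8 cells it was called with the block for Rrm2 (0.0424). The share of all genes called with the block is not given here, so these counts are not read as particular to the members. Without the block, Tyms had -1.80 ± 0.41 (adjusted p 0.0521, passing in 5 of 11 alternatives with values from 0.0124 upward), and Cad and Umps had differences of -0.07 ± 0.35 and -0.18 ± 0.29. In CD8 cells no member was called without the block (0.266% of all genes were, in either direction), with Rrm2 at -2.63 ± 0.50 (adjusted p 0.0636) and Tyms at -1.76 ± 0.41 (0.137). There, 6 members had an unadjusted limma p under 0.05, a count given without the share of all genes under that p. The KO and WT responses share arrays with the KO minus WT differences above, so they are not separate evidence.
Leaving out arrays moved these counts, and the share of all genes called in each such fit is not given here. Without CD8 WT 0 h array 1 or array 2, 2 members were called in the CD4 contrast, and 3 without CD8 KO 18 h array 1 or array 2, arrays that enter it only through the shared spread. In the CD8 contrast 1 was called without CD8 WT 0 h array 1, 2 without CD8 WT 18 h array 1 and 1 without CD8 KO 18 h array 1. In place of the 6 called with stimulation of KO CD4 cells, 3 were called without any of the 4 CD4 KO arrays. In place of the 3 in KO CD8 cells, 0, 1 and 1 were called without CD8 KO 0 h array 1, CD8 KO 0 h array 2 and CD8 KO 18 h array 2.

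**Figure D3:**
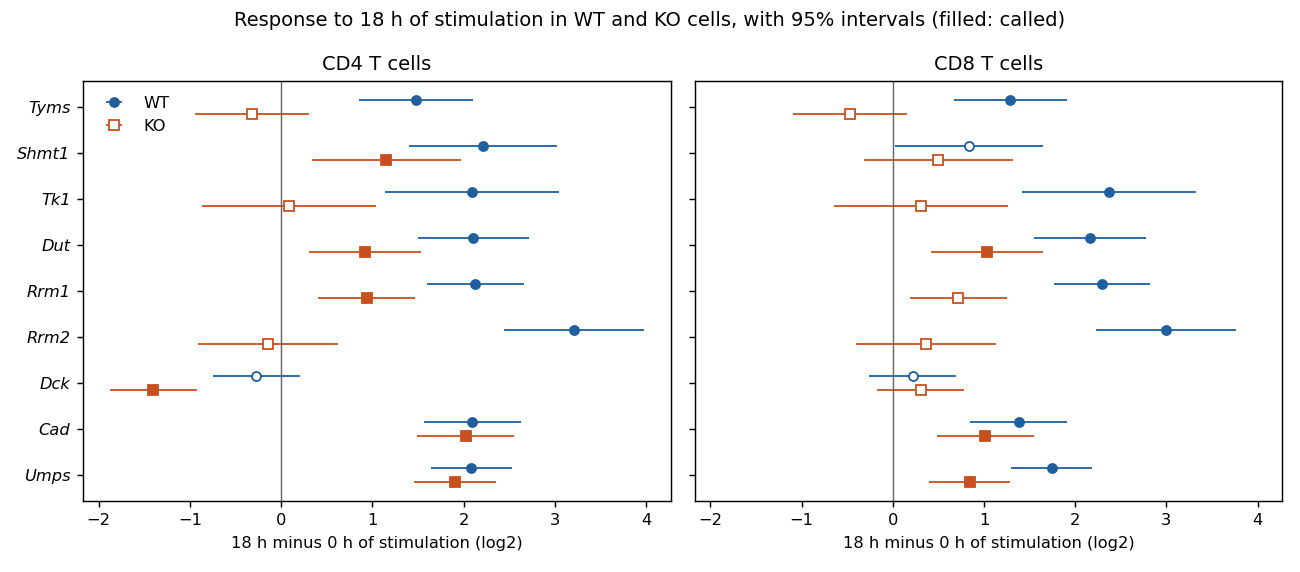
Change from 0 h to 18 h of each gene (log2, with 95% intervals from limma), in CD4 cells on the left and CD8 cells on the right. Blue circles are WT, orange squares are KO and filled symbols were called. Cad and Umps in CD4 cells have overlapping WT and KO points near 2, while Rrm2 lies at 3.21 in WT and at -0.15 in KO cells.

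Before stimulation, KO and WT cells differed in few of these genes. In CD4 cells at 0 h none of the 9 was called by limma (1.27% of all genes were, in either direction). There, 2 had an unadjusted p under 0.05, Rrm2 (1.03 ± 0.35) and Umps (-0.58 ± 0.21), with no share of all genes for that count. All 15 proliferation markers measured, among them Mki67, Top2a and Cdk1, had estimates above 0 there, with a median of 0.72, and their summed linear signal was 1011 to 1217 on KO and 650.1 to 660.9 on WT arrays. Ccnb2 was called higher among them (0.533% of all genes were), and that count became 0 on dropping one of the 4 CD4 0 h arrays or a stimulated KO CD4 array, and 2 on dropping a CD8 WT 0 h array. In CD8 cells Rrm2 alone was called higher (1.13% of all genes). Of the 15 markers, 12 were called higher in KO CD8 cells at 0 h, with a median difference of 1.90, and their summed linear signal was 2736 to 3246 on KO and 738.5 to 1125 on WT arrays. Without CD8 WT 0 h array 1 or 2, or CD8 KO 0 h array 1 or 2, 7, 1, 4 and 5 of them were called. At 18 h, 9 of the 15 were called lower in KO CD4 cells, where 4.14% of all genes were. The sums there were 702 to 817 (KO) and 1642 to 2435 (WT). Fewer markers were called without CD4 WT 18 h array 1 or CD4 KO 18 h array 2. In CD8 cells at 18 h the sums overlapped, 2715 to 2950 (KO) and 2602 to 4452 (WT), and 1 marker, Ccnb2, was called, higher (1.59% of all genes were), or none without CD8 WT 18 h array 2 and 2 without either CD4 WT 18 h array or CD8 KO 18 h array 1. The lowest value on any array was 1.62, and without detection calls it is not known whether the dimmest markers lie above background. The part of dividing cells in the differences of the members was not tested.

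**Figure D4:**
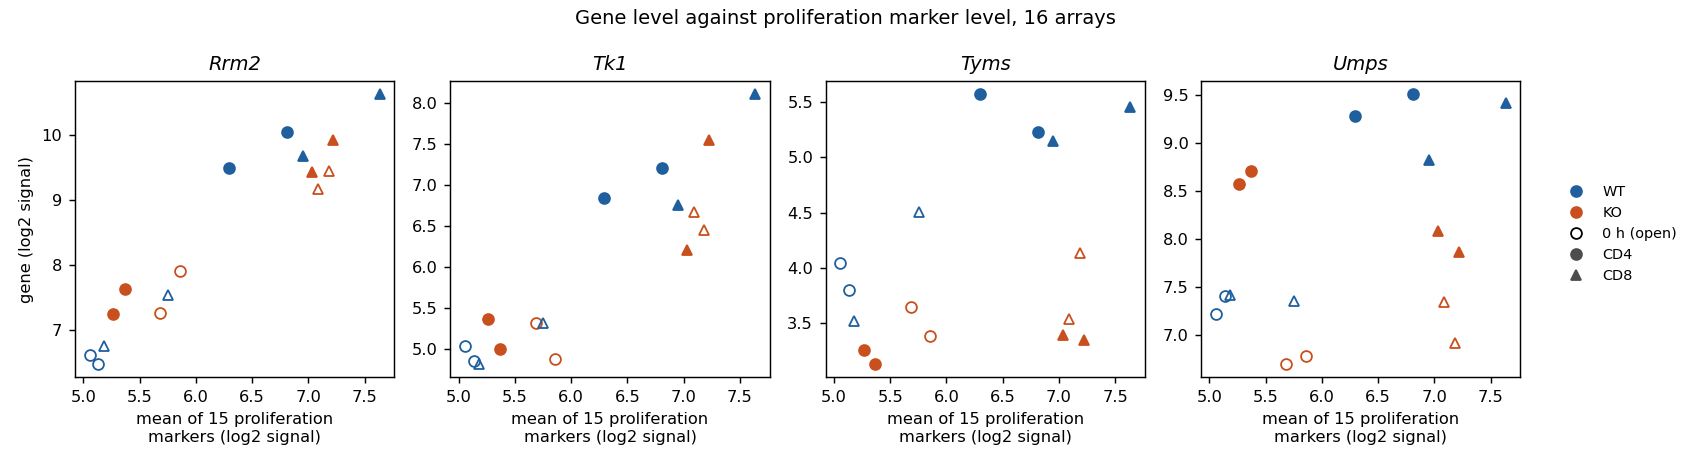
Log2 signal of Rrm2, Tk1, Tyms and Umps (vertical) against the mean log2 signal of 15 proliferation markers (horizontal) on the 16 arrays. Circles are CD4, triangles CD8, blue WT, orange KO, and open symbols 0 h. Rrm2 and Tk1 are highest where the markers are highest, while the stimulated KO CD8 arrays have Tyms at 3.39 and 3.35 with marker means of 7.03 and 7.22.

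Markers of cells that a naive T cell sort should lack were also read. Among 16 genes of memory and effector T cells, Cxcr3 and Ahnak were lower in KO CD4 cells at 0 h (0.742% of all genes were). Ahnak was higher in KO CD8 cells at 18 h (1.59% of all genes were). At 0 h the estimates of 14 of the 16 were below 0 in CD4 cells (median -0.73), and those of 6 in CD8 cells (median 0.14). Their summed signal at 0 h was 810 to 1346 (WT) and 448 to 808 (KO) in CD4 cells. In CD8 cells it was 2089 to 2251 (WT) and 2305 to 2633 (KO). The list includes Cd44, Gzmb and Ifng, which were called higher with stimulation in WT cells of both lineages. The summed signal of the 16 at 18 h was 1488 to 2758 (WT) and 943 to 1832 (KO) in CD4 cells, and 6254 to 6613 (WT) and 3841 to 4151 (KO) in CD8 cells. Gzmb, the brightest of them, read 11.75 and 11.81 in WT and 9.95 to 10.53 in KO CD8 cells at 18 h, and the other 15 summed to 2821 to 3029 (WT) and 2366 to 3163 (KO). The sum of 9 B cell genes at 18 h in CD4 cells was 1497 to 1700 (WT) and 555 to 759 (KO), with Ighm called lower (4.14% of all genes were). Ighm made most of that sum, and the other 8 summed to 106.2 to 106.8 (WT) and 96.7 to 115.0 (KO). That of 11 myeloid and dendritic genes was 267 to 387 (WT) and 532 to 570 (KO). Its brightest gene was Cebpb, and the other 10 summed to 130.8 to 144.6 (WT) and 146.5 to 165.8 (KO). Of 7 NK cell genes, Fcgr3 was called lower in KO CD4 cells at 0 h, at 6.53 and 5.61 (WT) and 4.72 and 4.93 (KO). No other NK cell gene, and none of 6 thymocyte genes, was called in the KO minus WT comparisons. The part of such cells in the members' values was not tested.

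The knockout differences of the 2 lineages were compared directly. No member was called in the CD8 minus CD4 contrast of the KO difference at 0 h (0% of all genes) or at 18 h (0.0403%). The unadjusted limma p was under 0.05 for 2 members at each time, counts given without the share of all genes. At 18 h these were Rrm2 (1.85 ± 0.50, adjusted p 0.338) and Dck (1.05 ± 0.31, adjusted p 0.427). For Tyms the contrast was 0.28 ± 0.41, with a 95% interval of -0.60 to 1.16. In WT cells the lineages were not called different in any member at 0 h (1.28% of genes) or 18 h (3.28%). Of the members, 0 and 1 had an unadjusted p under 0.05, again without the share of all genes. The calls in CD4 but not in CD8 cells are therefore not shown to differ between lineages.

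Other genes of the pathway were read beside the members. Of 44 listed for folate supply, UMP to CTP conversion, deoxynucleotide salvage and pool control, 36 were measured. In the KO comparisons 1 was called lower in CD4 cells at 18 h, where 4.14% of all genes were, 1 was called lower in CD8 cells at 18 h, where 1.16% were, and 0 at 0 h in either lineage. Over the alternatives the counts at 18 h ran from 0 to 4 in CD4 and from 0 to 6 in CD8 cells. The highest came with the replicate block, and the share of all genes called is given for none of these fits. In CD4 cells 3 were called without CD8 KO 18 h array 1 or 2 and 0 without any CD4 18 h array. The count in CD8 cells rose without CD8 KO 18 h array 1 or without either CD4 WT 0 h array. Without CD8 KO 18 h array 1, that group is array 2 alone, the array with a 3' to 5' difference of 3.76. The CD8 count was 0 on dropping a stimulated KO CD4 array, an unstimulated WT CD8 array or CD8 WT 18 h array 2. Mthfd1, which interconverts folate cofactors, read 10.23 and 10.27 in WT and 9.41 and 9.37 in KO CD4 cells at 18 h, a difference of -0.86 ± 0.19 (limma adjusted p 0.0161). Uck2, uridine-cytidine kinase, read 8.75 and 8.92 in WT and 8.27 and 7.75 in KO CD8 cells at 18 h, a difference of -0.82 ± 0.18 (adjusted p 0.0298). Neither pair of groups overlapped. The call of Mthfd1 was lost without any of the 4 CD4 18 h arrays (-0.88 to -0.84), and that of Uck2 without CD8 KO 18 h array 2 (-0.56) or either array of CD8 WT 18 h, CD8 WT 0 h or CD4 KO 18 h. It was also lost in 5 of 12 alternatives, with a difference of -0.30 when its probe sets were averaged. Differences not called included those of Mthfd2 (-1.25 ± 0.42), Slc29a1 (-1.02 ± 0.36) and Cmpk2 (1.48 ± 0.45) in CD8 cells at 18 h and of Glrx (-0.97 ± 0.38) in CD4 cells at 18 h. In stimulated CD8 cells Mthfd2 read 8.93 and 9.76 (WT) and 8.74 and 7.44 (KO). Slc29a1 read 6.77 and 7.17 (WT) and 6.63 and 5.27 (KO) there. The lower KO value of both genes is from array 2, whose 3' to 5' difference was 3.76.

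Most members had several probe sets, 23 in all that name a member alone. They were fitted among all 22626 probe sets that are no controls. Rrm2 was lower in KO CD4 cells at 18 h by each of its 3 probe sets (-2.36 to -1.99) and Dck by each of its 3 (-1.18 to -0.89), when 2.80% of probe sets were called lower. Of the 4 Shmt1 probe sets, 2 were called lower there (-1.45 ± 0.31 and -0.93 ± 0.24) and 3 in CD8 cells at 18 h (-1.76 ± 0.28, -1.46 ± 0.31 and -1.20 ± 0.24, 0.871% of probe sets). Of the 3 Umps probe sets 1 was called in each lineage, with differences from -0.95 to -0.64 over the 3 for CD4, and from -1.15 to -0.94 for CD8. The 2 Rrm1 probe sets disagreed on 2 of the 3 arrays of high 3' to 5' difference, where the dimmer of the pair read 4.03 (CD4 WT 0 h array 1) and 4.22 (CD8 KO 18 h array 2).

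For Tyms the probe sets differed most. The values above come from a probe set that spans 3.13 to 5.57, whereas 2 more lay at 2.57 to 3.24 and 2.41 to 2.85 on all 16 arrays and showed no difference beyond 0.23 between genotypes. Averaged with them, Tyms differed at 18 h by -0.74 in CD4 cells, still called, and by -0.68 in CD8 cells, not called, and its WT changes of 0.47 and 0.32 were not called. A further probe set, assigned to Tyms and to its pseudogene Tyms-ps together, was brighter on stimulated WT arrays. It read 8.53 and 7.94 in WT and 3.76 and 3.76 in KO CD4 cells at 18 h, and 7.48 and 8.67 in WT and 4.98 and 5.99 in KO CD8 cells. Neither pair of groups overlapped. The differences were -4.47 ± 0.40 and -2.59 ± 0.40 (limma adjusted p 0.000145 and 0.012), and the KO minus WT response in CD4 cells was -3.66 ± 0.57 (adjusted p 0.0205, 0.327% of probe sets called lower). Which of the 2 loci gives this signal cannot be told apart. The table holds no detection calls, so whether the dimmest probe sets lie above background is not known.

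**Figure D5:**
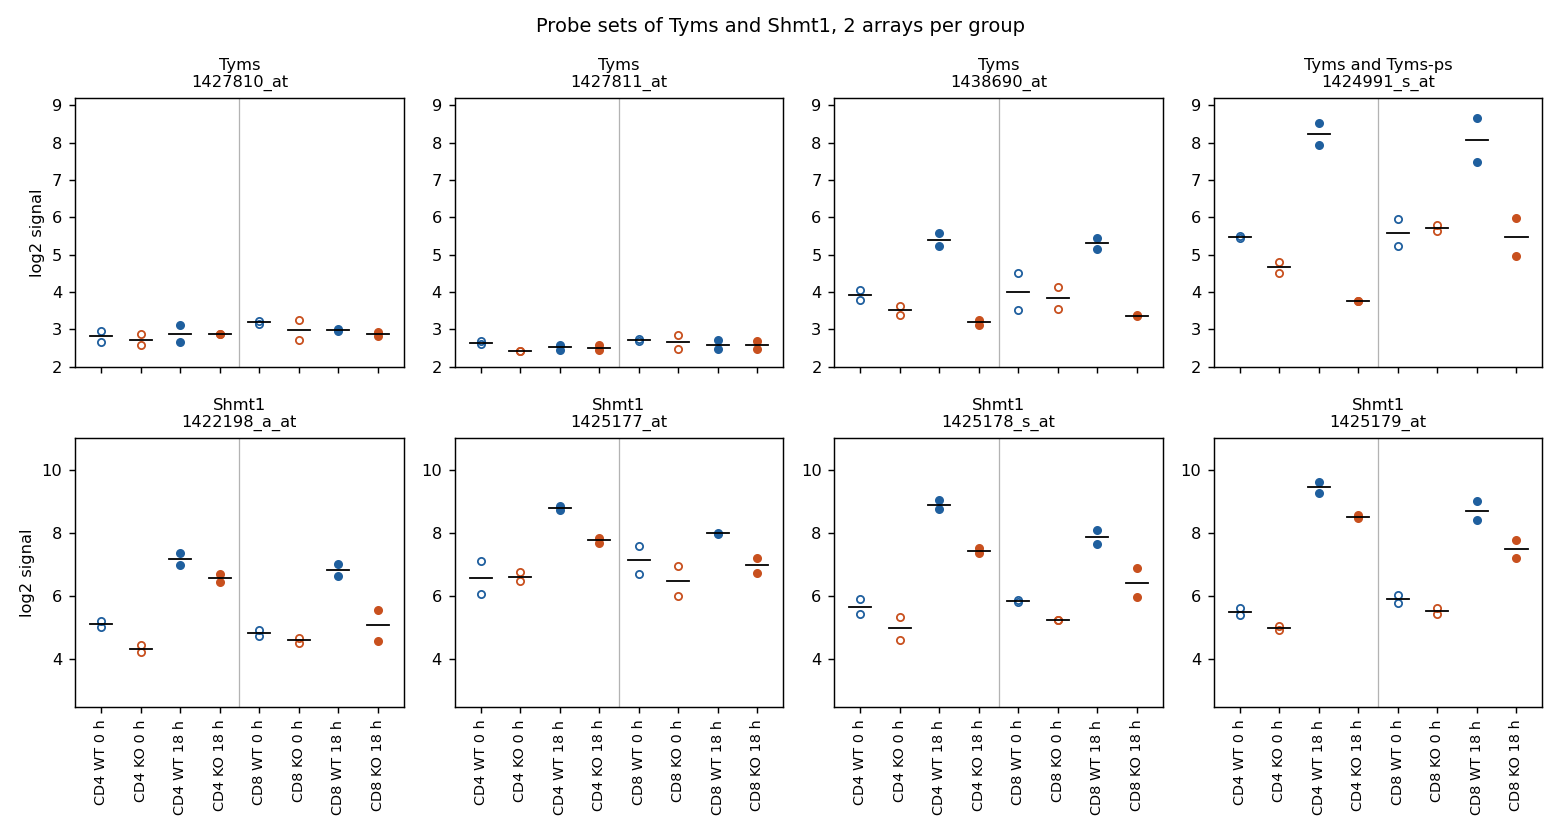
Log2 signal of the 4 probe sets that name Tyms (top, the rightmost shared with Tyms-ps) and of the 4 that name Shmt1 (bottom) in the 8 groups, 2 points per group with a line at the mean. Blue is WT, orange KO, open points 0 h. The 2 leftmost Tyms probe sets stay between 2.41 and 3.24, while the rightmost spans 3.76 to 8.67.

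Across the 16 arrays, which share 8 groups so that a correlation mostly describes group means, Dut and Rrm1 had a Pearson r of 0.981 and Tk1 and Rrm2 of 0.945. Umps was closest to Cad (0.869) and Shmt1 (0.839). Dck had r between -0.373 and 0.294 with the other members. Tyms was nearest to Shmt1 (0.695) among the members, a gene at rank 180 of 12393, and Umps stood at rank 372 (0.599). The 5 genes most like Tyms over these arrays were Kars, a lysyl-tRNA synthetase (0.933), Nudt1, which hydrolyses oxidised purine deoxynucleotides (0.905), Haspin, a histone H3 kinase (0.897), Pdf, a mitochondrial peptide deformylase (0.892), and Cops7a, a COP9 signalosome subunit (0.891). Kars read 10.40 to 10.68 on the 4 stimulated WT arrays and 8.68 to 9.41 on the other 12. Nudt1 read 8.18 to 8.87 on stimulated WT, 6.86 to 7.29 on unstimulated WT and 5.67 to 6.34 on all 8 KO arrays. These genes were chosen for their likeness, and their values are a description.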

How the data were processed

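Expression was measured in 16 arrays of sorted naive T cells, 2 for each of 8 groups taken from the labels. The deposited values are log2 probe set signals that the authors made from Affymetrix array images with the R package affy. The summary method and the affy version are not given in the sources used here. Array medians lay between 5.24 and 5.43, and nothing further was normalized. Precision is limited by the number of arrays, which carry no read depth.

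Of 22690 probe sets, 64 are controls and 20393 name a single gene in the platform's gene table. Each of the 12394 genes was represented by its probe set of highest mean. limma 3.58.1 in R 4.3.3 fitted a mean for each group with a spread shared by the 16 arrays, and 14 contrasts were tested two-sided against 0. Calls needed a Benjamini-Hochberg adjusted p under 0.05 over all genes and a fold above 1.5. The fit was tested on simulated data. An added fit over all probe sets other than controls, chosen after seeing the data, gave the values of single probe sets.

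The members, the pathway and marker lists and the tests were chosen with earlier results of these data known. Named genes were the 9 members, the called pathway genes and up to 2 uncalled ones per list, the 5 genes most like Tyms by Pearson r, and Gabpa. Marker genes were read as lists, with sums also taken without the brightest gene, a step chosen after seeing the data. Promoter windows, gene positions and names come from RefSeq tables of GRCm38.p6, read with Python, and 9 of 9 members matched. Alternatives were other probe set choices, scalings, variance models, array subsets, a replicate block, a test against a minimum fold, no minimum fold and leaving out each array.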

Additional observations from a re-analysis of the deposited data

Results flagged for a closer look

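The response of Rrm2 to stimulation in CD4 cells differed between KO and WT cells by -3.36 ± 0.50 (log2, limma adjusted p 0.00708), as tested by the interaction of genotype and time. Of the 3 Rrm2 probe sets, fitted among all probe sets, 1 was called for it, with values from -3.36 to -2.27. WT arrays went from 6.49 and 6.63 to 10.05 and 9.49, and KO arrays from 7.91 and 7.26 to 7.63 and 7.24. The same test was passed by the probe set that names both Tyms and Tyms-ps, with -3.66 ± 0.57 (adjusted p 0.0205). Both differences are in CD4 cells, and neither was called in CD8 cells, where the values were -2.63 ± 0.50 and -2.71 ± 0.57, although Rrm2 was with the replicate number as a block (adjusted p 0.0424). With 2 arrays per group no array could be tested as standing apart within its group.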

How the results depend on the processing

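Under the 12 alternatives and 16 fits that left out an array, no called value of a member changed sign. With 34 of 126 member values called, the alternatives kept the call in 362 cases and lost it in 42. Among uncalled values, 29 cases passed and 1065 did not. In CD8 cells at 0 h the number of members called was 1, and 3 with array weights, 0 with the 8 arrays of the lineage alone and 0 against a minimum fold of 1.5. In CD4 cells at 18 h it was 6, and 2 against that minimum. In CD8 cells at 18 h it was 2, and 0 with array weights, 0 with the lineage alone, 1 with genes brighter than the median, 1 without the 3 arrays of high 3' to 5' difference and 0 against the minimum fold. The fit to genes brighter than the median leaves out Tyms, whose mean lies above 31.7% of genes, so Tyms could not be called in it. For the stimulation of KO CD4 cells the number of members called was 6, and 3 against the minimum fold. For that of KO CD8 cells it was 3, and 0, 0, 1 and 0 with array weights, the lineage alone, without the 3 arrays and against the minimum fold. For the KO minus WT response in CD4 cells it was 1, and 2 with quantile normalization, 2 with trend and robust settings, 3 with array weights and 4 with the lineage alone. In CD8 cells it was 0, and 1 with trend and robust settings. For CD8 minus CD4 in WT cells at 18 h it was 0, and 1 (Shmt1) when probe sets were averaged. The cause of these shifts was not tested, except that a minimum fold is a stricter test and that the fit to brighter genes lacks Tyms. The share of all genes called under each alternative, or on leaving out an array, is not given here. These counts are therefore not read as particular to the members. Leaving out an array gave 0 to 2 (CD8 0 h), 2 to 7 (CD4 18 h), 0 to 3 (CD8 18 h), 8 to 8 and 6 to 7 (WT stimulation in CD4 and CD8), 3 to 6 and 0 to 4 (KO stimulation), and 1 to 3 and 0 to 2 (KO minus WT response).

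With the replicate number as a block within each lineage, the members called for the KO minus WT response went from 1 to 4 in CD4 and from 0 to 1 in CD8 cells, and no other count of members moved by over 1.5 times. The share of all genes called with the block is not given here. Deviations of same-numbered arrays were correlated at 0.26 to 0.45 over the 6 pairs of CD4 groups and at 0.18 to 0.56 over the 6 pairs of CD8 groups, and at -0.60 to -0.12 between lineages. The cells of a sort were divided between 0 h and 18 h, but the sources do not say that a replicate number marks a sort, and CD4 and CD8 cells of a number were not blocked together.

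Limits are the 2 arrays per group, the dim Tyms probe set, array CD8 KO 18 h replicate 2 with its high 3' to 5' difference, and Gabpa probe sets that do not check the deletion.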

Other observations

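Genes of DNA replication were read in the same comparisons. The 6 subunits of the Mcm2-7 helicase, which unwinds DNA at replication forks, were all called lower in KO CD4 cells at 18 h, with a median difference of -1.11, and 4 of them in KO CD8 cells (Mcm3, Mcm4, Mcm5 and Mcm6, median of the list -0.89). Of 20 genes of replicative polymerases and the fork, 11 were lower in KO CD4 cells at 18 h (median -1.14) and 4 in KO CD8 cells (Pola1, Pola2, Rfc3 and Lig1, median -0.60). The median of all genes was 0.02 and 0.07 in these comparisons, and 4.14% and 1.16% of them were called lower. In CD8 cells at 18 h Rfc3 read 8.23 and 8.87 (WT) and 7.12 and 4.71 (KO). Its lower KO value is from array 2, whose 3' to 5' difference was 3.76. The calls of these replication genes were not recomputed under the alternatives or on leaving out arrays.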
